A study of Mus musculus with 12 samples.

Results

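Egr1, Egr2, Egr3, Egr4, Nr4a1, Nr4a2, Nr4a3, Npas4, Arc and Ier2 are 10 genes that neurons switch on soon after a stimulus, and their levels were followed through mechanical injury and TGF-β1 treatment of cultured cortical neurons. The genes were found by symbol among the 55901 genes of the expression table. All 10 were found, and 9 of them had a mean of at least 0.5 FPKM (fragments per kilobase of gene, scaled to the size of the library) and entered the test, while Egr2 was listed at 0 in every library. RNA-seq libraries of poly-A RNA were made from primary neurons of the cortex of newborn C57BL/6J mice, which had received arabinosylcytosine on day 1 of culture to hold back dividing glial cells. The Control group was left uninjured, the Trauma group was scratched, and the Tra_TGF group was scratched and given TGF-β1 at 10 ng/mL, with 4 libraries in each group. RNA of Trauma and Tra_TGF was taken after 24 h, while no time is labeled for Control. The labels do not say whether the libraries of a group came from separate cultures or litters, so that p-values measure only the spread between these libraries, which may be technical.

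Immediate early genes are transcribed within minutes of calcium entry or growth factor signaling, without new protein synthesis, from promoters read by factors such as CREB, SRF and MEF2 that are already present in the nucleus. The Egr genes encode zinc finger transcription factors, the Nr4a genes encode orphan nuclear receptors, and Npas4 encodes a bHLH-PAS factor that depends on neuronal calcium entry. Arc encodes a protein that acts at synapses in the removal of AMPA receptors, and Ier2 encodes a small nuclear protein of the early response to growth factors.

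The stretches before a transcription start of Nr4a1, Nr4a2, Nr4a3, Npas4 and Egr4, the 5 tested members with a RefSeq promoter, are shown. Marked in them are the core of the cyclic AMP response element (CRE), to which CREB binds, and the site that Egr factors bind. The stretches of Nr4a1 and Npas4 lie inside the span of the gene used for expression, and that of Nr4a3 overlaps the start of its span. RefSeq sequences of the GRCm38.p6 build, the 250 bases before the transcription start, read 5′ to 3′ on the strand of the gene, were taken for Nr4a1 (chr15:101266596-101266845, plus strand), Nr4a2 (chr2:57124004-57124253, minus strand), Nr4a3 (chr4:48045055-48045304, plus strand), Npas4 (chr19:4989972-4990221, minus strand) and Egr4 (chr6:85513590-85513839, minus strand). Capitals mark the CRE core TGACG, or CGTCA where it lies on the other strand, and the Egr site GCGNGGGCG on either strand.
Nr4a1: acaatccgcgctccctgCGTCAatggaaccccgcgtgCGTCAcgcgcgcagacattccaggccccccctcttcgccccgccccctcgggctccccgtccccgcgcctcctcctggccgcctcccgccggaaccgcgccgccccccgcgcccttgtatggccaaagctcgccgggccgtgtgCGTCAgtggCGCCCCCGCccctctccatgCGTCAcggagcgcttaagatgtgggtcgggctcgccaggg
Nr4a2: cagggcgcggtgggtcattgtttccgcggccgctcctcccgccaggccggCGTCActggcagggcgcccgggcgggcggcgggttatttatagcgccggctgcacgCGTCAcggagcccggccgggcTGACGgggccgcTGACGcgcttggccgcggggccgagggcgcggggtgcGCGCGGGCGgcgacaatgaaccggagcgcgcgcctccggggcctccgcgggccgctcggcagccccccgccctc
Nr4a3: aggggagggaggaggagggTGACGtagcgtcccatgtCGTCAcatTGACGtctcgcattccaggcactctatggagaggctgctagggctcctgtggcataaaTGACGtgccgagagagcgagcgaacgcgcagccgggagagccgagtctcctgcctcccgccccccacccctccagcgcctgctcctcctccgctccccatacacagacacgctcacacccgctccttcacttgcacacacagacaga
Npas4: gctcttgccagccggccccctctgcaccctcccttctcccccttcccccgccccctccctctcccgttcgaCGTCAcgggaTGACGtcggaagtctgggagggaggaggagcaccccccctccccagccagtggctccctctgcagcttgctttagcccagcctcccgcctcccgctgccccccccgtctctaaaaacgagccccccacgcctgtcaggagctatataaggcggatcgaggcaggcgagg
Egr4: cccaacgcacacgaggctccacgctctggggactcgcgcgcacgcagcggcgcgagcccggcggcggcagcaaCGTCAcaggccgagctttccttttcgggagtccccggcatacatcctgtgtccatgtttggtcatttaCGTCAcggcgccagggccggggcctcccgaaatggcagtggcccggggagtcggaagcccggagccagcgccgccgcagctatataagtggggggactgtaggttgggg

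The CRE core occurred 4 times in each Nr4a sequence and 2 times in each of Npas4 and Egr4. Of the 32851 promoters in the same table, 17.8% held the core at least 1 time in a window of this length. The Egr site lay at positions -60 to -52 of Nr4a1 and -74 to -66 of Nr4a2, counted back from the start, and was held by 4.70% of all promoters. These matches describe letters in the sequence and do not show binding. The whole CRE (TGACGTCA), the CArG box of SRF and the Nr4a site AAAGGTCA, searched on both strands, were in none of the 5 sequences and in 1.55%, 1.47% and 1.34% of all promoters. RefSeq promoters were matched for 6 of the 10 members. The sixth, Egr2, which was not tested, has 5 promoter entries that overlap in part, of which 3 held the CRE core and 4 a CArG box. Egr1, Egr3, Arc and Ier2 are named only.

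The libraries held 15052486 to 17381671 reads on genes. The deposited FPKM already stood on a common median-of-ratios scale, since the factors computed from 17640 genes were 1.01 in every library. All 12 neuronal markers were detected, and their summed level was 1705 to 1755 FPKM in Control, 1506 to 1613 in Trauma and 1480 to 1519 in Tra_TGF. Astrocyte markers (10 genes, 9 tested) summed to 213 to 241 FPKM in Control, 271 to 333 in Trauma and 286 to 306 in Tra_TGF. Microglial markers (10 genes, 6 tested) summed to 31.1 to 33.9 FPKM in Control, 43.3 to 48.9 in Trauma and 40.0 to 42.8 in Tra_TGF. Oligodendrocyte lineage markers (10 genes) stood at 54.0 to 60.3, 69.7 to 77.2 and 66.4 to 73.3 FPKM in the same order, and vascular and fibroblast markers (10 genes) at 2.53 to 3.08, 2.96 to 4.39 and 3.54 to 4.11 FPKM. Of the 52 markers, 0 were listed at 0 throughout a group. Glial markers therefore moved with the injury groups, and their part in the results below was not tested. Mitochondrially encoded genes took 2.12% to 2.97% of reads in Control, 2.17% to 2.30% in Trauma and 2.69% to 3.23% in Tra_TGF. In bulk RNA, a change in the number of cells that express a gene and a change in RNA per cell cannot be told apart.

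In uninjured neurons Egr3 was the most abundant member per unit of gene length, with a mean of 11.0 FPKM. Ier2 followed with 5.49, Egr1 with 4.74, Egr4 with 4.16, Nr4a3 with 2.95 and Nr4a1 with 2.77 FPKM, and each of these 5 overlapped its neighbor in the order. Npas4 stood below them at 1.65 FPKM without overlap, and Arc (0.848 FPKM) and Nr4a2 (0.820 FPKM) were lowest and overlapped each other. In Trauma the order of the means was Egr1, Egr3, Nr4a1, Ier2, Egr4, Nr4a3, Npas4, Arc and Nr4a2, and in Tra_TGF it was Egr1, Egr3, Ier2, Nr4a3, Nr4a1, Egr4, Npas4, Nr4a2 and Arc. In both injured groups every pair of neighbors in the order overlapped.

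**Figure D1:**
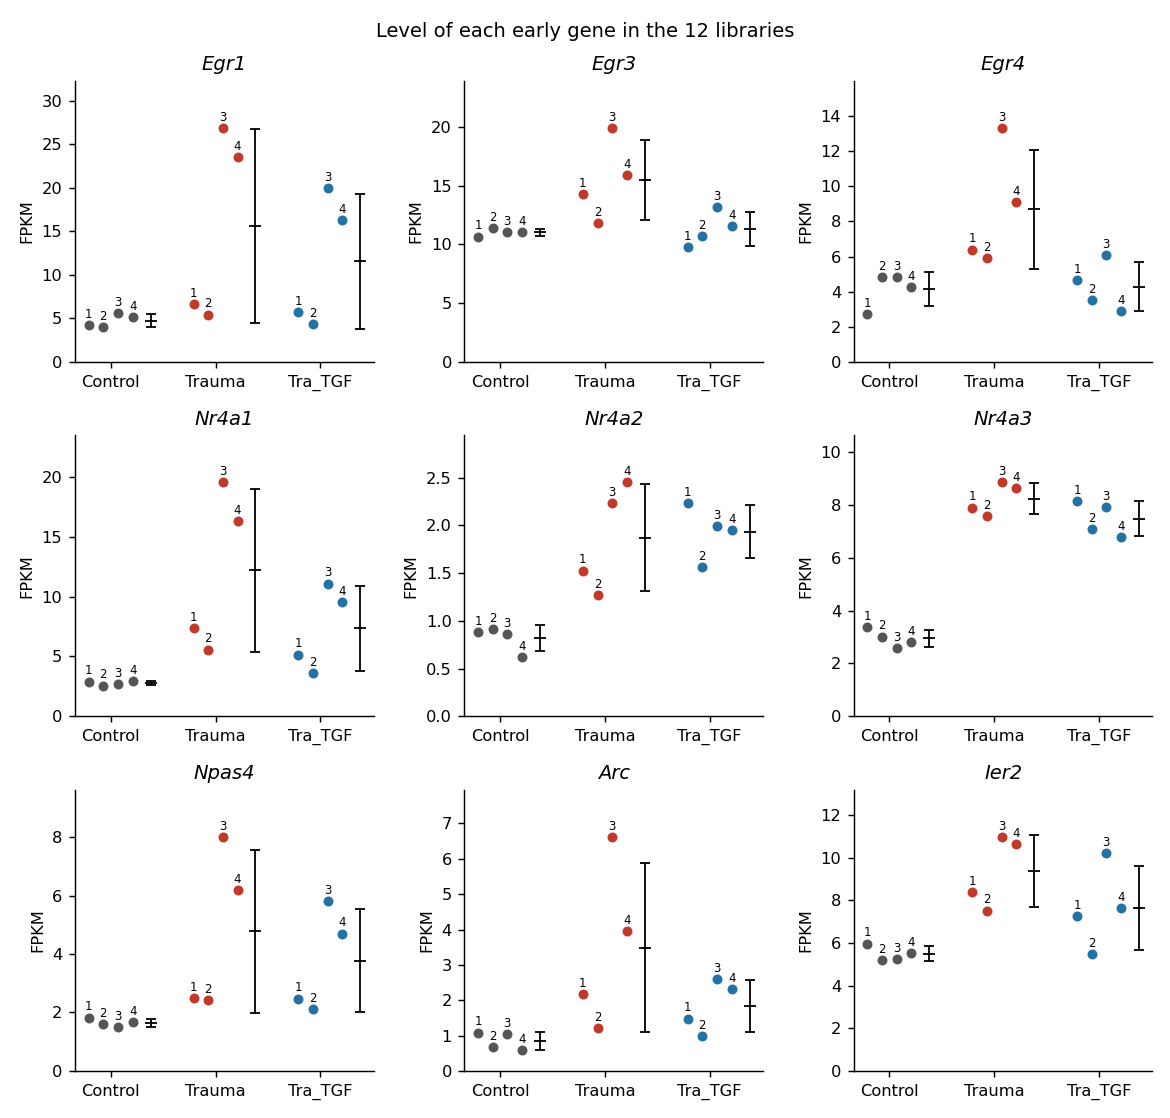
Level in FPKM (linear axis from 0) of the 9 detected genes in the 12 libraries, with the library number above each point and the mean ± SD of 4 libraries beside each group. In Trauma, libraries 3 and 4 stood above libraries 1 and 2 for all 9 genes, while the 4 Nr4a3 values stayed between 7.57 and 8.84 FPKM.

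Scratch injury was compared with Control to ask which of these genes were still raised 24 h later. All 3 Nr4a genes, Arc and Ier2 rose, by 1.68-fold for Ier2 to 3.76-fold for Nr4a1. Thus 5 of the 9 tested members were called higher and 0 lower by limma, with p-values adjusted after Benjamini and Hochberg and a threshold of 0.05, against 6.00% of all 15016 tested genes called in either direction and 3.30% called higher. The fold changes of all 9 were above 0, as were those of 46.6% of all tested genes, with a median log2 fold change of 1.29 against -0.012 over all tested genes. For 8 of the 9, the exception being Egr1, the lowest Trauma library was above the highest Control library, which held for 6.25% of all tested genes. At an unadjusted p under 0.05 all 9 passed, but the share of all tested genes at this looser threshold is not given. The members were chosen with earlier results of these data known, so these counts are description and not a test.

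The Egr genes did not pass the adjusted threshold after injury, with the Trauma libraries spread widely. Egr1 (ENSMUSG00000038418, chr18:34859823-34864984, GRCm38), which controls many growth and plasticity genes, stood at 4.20, 3.97, 5.60 and 5.18 FPKM in Control libraries 1 to 4. It stood at 6.68, 5.45, 26.9 and 23.5 FPKM in the Trauma libraries, in the same order, on 426 to 2133 reads. Trauma libraries 3 and 4 were far above every Control library, whereas Trauma 2 lay inside the Control range. The mean was 15.6 ± 11.2 FPKM in Trauma against 4.74 ± 0.777 in Control (SD, n = 4), a log2 fold change of 1.38 ± 0.58 (SE; limma, adjusted p = 0.203).

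Egr3 (chr14:70077203-70082614), which acts in neuronal plasticity and in muscle spindle development, had the tightest Control values of the members, at 10.7, 11.4, 11.0 and 11.1 FPKM. In Trauma it stood at 14.3, 11.8, 19.9 and 15.9 FPKM. The groups did not overlap, although Trauma 2 was only just above Control. Its fold change was, on the log2 scale, 0.46 ± 0.13 (limma, adjusted p = 0.0663).

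Egr4 (chr6:85511121-85513589), the family member most restricted to neural tissue, stood at 2.72, 4.82, 4.83 and 4.26 FPKM in Control. In Trauma it stood at 6.40, 5.92, 13.3 and 9.11 FPKM. Here too the groups were separate and Trauma 3 was highest, and the log2 fold change was 1.00 ± 0.29 (limma, adjusted p = 0.0625).

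Egr2 (chr10:67535475-67542188), known for its part in myelination and hindbrain patterning, had 0 reads in all 12 libraries. A count of 3 reads, the limit that 0 allows if reads of the gene were counted at all, would be 0.0496 to 0.0580 FPKM. Its neighbors Ado (0 to 2 reads) and Nrbf2 (0 to 1 reads) were also at or near 0, although Nrbf2 encodes a widely used autophagy protein, while Reep3 (432 to 707 reads), Jmjd1c (993 to 1463 reads) and Zfp365 (627 to 845 reads) on the same stretch were well covered. Egr2 is therefore given only as listed at 0.

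All 3 Nr4a receptor genes rose after injury. Nr4a1 (Nur77, chr15:101254269-101274795), a receptor that acts in cell death and metabolism, stood at 2.91, 2.56, 2.70 and 2.92 FPKM in Control. In Trauma it stood at 7.36, 5.57, 19.5 and 16.3 FPKM. Every Trauma library was well above every Control library, with libraries 3 and 4 highest. Nr4a1 thus had the largest log2 fold change of the members, 1.91 ± 0.41 (limma, adjusted p = 0.0171), and the call was lost without Trauma 4 (adjusted p = 0.0605).

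Nr4a2 (Nurr1, chr2:57106830-57124003), needed for the development of midbrain dopamine neurons, was the least abundant of the family. It stood at 0.881, 0.913, 0.862 and 0.623 FPKM in Control, on 39 to 63 reads, and at 1.53, 1.27, 2.23 and 2.45 FPKM in Trauma, on 90 to 177 reads. All Trauma libraries were above Control, and the log2 fold change was 1.07 ± 0.20 (limma, adjusted p = 0.01004).

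Nr4a3 (Nor1, chr4:48045153-48086447) stood apart from its relatives in how closely the injured libraries matched. It stood at 3.38, 3.02, 2.59 and 2.81 FPKM in Control and at 7.89, 7.57, 8.84 and 8.62 FPKM in Trauma. The highest Trauma library was 1.17 times the lowest, against 3.50 times for Nr4a1 and 1.93 times for Nr4a2. Its log2 fold change was 1.45 ± 0.09 (limma, adjusted p = 4.27e-06).

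**Figure D2:**
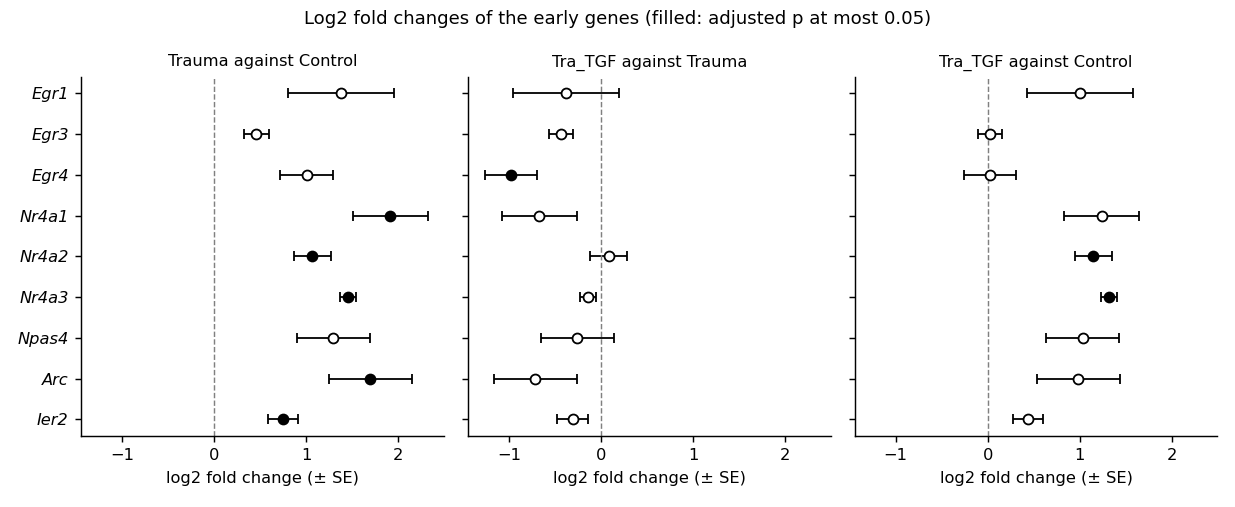
Log2 fold change ± SE (x axis) of the 9 tested genes in each comparison from one limma fit of 12 libraries, with filled points at an adjusted p of at most 0.05. Nr4a2 and Nr4a3 were filled in both comparisons with Control, and Egr4 was the only gene filled between Tra_TGF and Trauma.

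Npas4 (chr19:4984355-4990316), which governs inhibitory synapse number on excitatory neurons, stood at 1.82, 1.59, 1.51 and 1.68 FPKM in Control. In Trauma it stood at 2.48, 2.43, 8.01 and 6.20 FPKM. The groups were separate, but Trauma libraries 3 and 4 stood far above the other two. The log2 fold change of 1.29 ± 0.40 did not pass (limma, adjusted p = 0.0827).

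Arc (chr15:74669083-74672570) stood at 1.08, 0.673, 1.04 and 0.594 FPKM in Control, on 28 to 51 reads. In Trauma it stood at 2.17, 1.20, 6.62 and 3.95 FPKM, with the highest library 5.52 times the lowest, against 4.94 times for Egr1. The SD on the log2 scale was 1.03 for Arc and 1.19 for Egr1, the widest of the members by that measure. Trauma 2 was only just above the Control range. The log2 fold change was 1.70 ± 0.45 (limma, adjusted p = 0.0466). The call was lost when any of 10 of the 12 libraries was left out, those of Control included, with an adjusted p of up to 0.134.

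Ier2 (chr8:84661331-84662854) stood at 5.97, 5.21, 5.26 and 5.53 FPKM in Control and at 8.38, 7.52, 11.0 and 10.7 FPKM in Trauma. The groups did not overlap and the spread was small beside that of Arc or Egr1. Its log2 fold change was 0.75 ± 0.17 (limma, adjusted p = 0.0212). The call was lost without Control 2, Control 3, Trauma 3 or Trauma 4, at an adjusted p of 0.0518 to 0.0743.

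The spread between injured libraries followed the library number. For all 9 tested members, Trauma libraries 3 and 4 were both above libraries 1 and 2, which held for 18.3% of all tested genes. In Tra_TGF the same order held for 6 of 9 members (Egr1, Egr3, Nr4a1, Npas4, Arc and Ier2), against 18.4% of all genes, and in Control for Egr1 alone, against 15.6%. Trauma 2 was the lowest library for all 9 members, and Trauma 3 the highest for 8 of them, the exception being Nr4a2. The labels name no batch or date for the libraries. This order was looked for after the values were seen.

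In each library, the median log2 difference of the 9 members from the Control mean was 0.64, 0.53, 1.69 and 1.52 in Trauma 1 to 4 and 0.56, 0.23, 1.40 and 1.18 in Tra_TGF 1 to 4. All 8 injured libraries were thus shifted upward, libraries 3 and 4 most. The median SD of the members on the log2 scale was 0.53 in Trauma, 0.46 in Tra_TGF and 0.16 in Control, against 0.11, 0.12 and 0.14 over all tested genes. Only 3.16% of tested genes had a larger SD in Trauma than Egr1, whereas 53.4% had a larger SD than Nr4a3. Within Trauma the astrocyte markers summed to 271, 313, 325 and 333 FPKM and the microglial markers to 44.2, 46.3, 43.3 and 48.9 FPKM in libraries 1 to 4. Astrocyte markers in Trauma were thus higher in libraries 3 and 4 than in 1 and 2, the order that the members showed. However, library 1 and not library 2 was lowest, and microglial markers were lowest in library 3. Neuronal markers summed to 1613, 1565, 1552 and 1506 FPKM in the same libraries. In Tra_TGF 1 to 4 the astrocyte markers summed to 286, 306, 289 and 288 FPKM and did not show that order. The part of these markers in the order of the members was not tested.

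**Figure D3:**
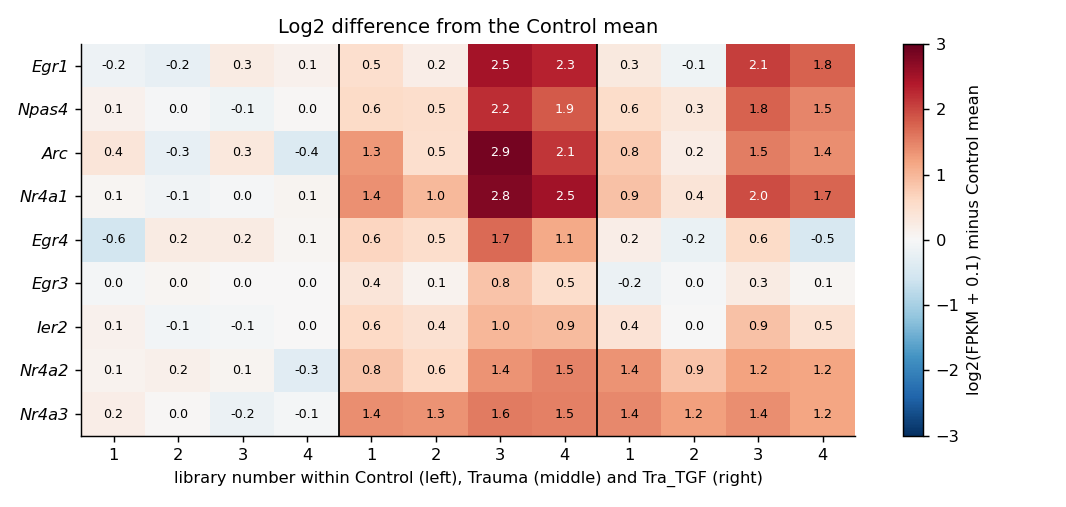
Difference of log2(FPKM + 0.1) from the Control mean (color and printed value) for 9 genes (rows) in the 12 libraries (columns, numbered within Control, Trauma and Tra_TGF). Trauma 3 and 4 and Tra_TGF 3 and 4 were reddest for Egr1, Npas4, Arc and Nr4a1, and the Nr4a3 row was even across the 8 injured libraries.

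With libraries 3 and 4 of Trauma and of Tra_TGF left out, a choice made after seeing the data, 2 members remained called in Trauma against Control. These were Nr4a1 (log2 fold change 1.18 ± 0.16, adjusted p = 0.0227) and Nr4a3 (1.37 ± 0.11, adjusted p = 0.00471). The log2 fold change was 0.36 ± 0.17 for Egr1, 0.55 ± 0.13 for Npas4, 0.90 ± 0.33 for Arc, 0.71 ± 0.23 for Nr4a2 and 0.53 ± 0.12 for Ier2, and none of these 5 passed (limma, adjusted p of 0.112 to 0.467). The Nr4a3 value was nearly as large as with all libraries, whereas that of Egr1 was much smaller. The share of all tested genes called in this smaller fit is not given, so the count of 2 members has no background.

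Addition of TGF-β1 to scratched neurons was examined by setting Tra_TGF against Trauma. Egr4 fell and no other member passed. Egr4 stood at 4.68, 3.52, 6.10 and 2.88 FPKM in Tra_TGF 1 to 4, and Tra_TGF 3 was above the lowest Trauma library, so the groups overlapped. The log2 fold change was -0.98 ± 0.29 (limma, adjusted p = 0.0448). The call was 1 of 9 members, against 12.1% of all tested genes called and 7.71% called lower, and 0 of 9 were called higher, against 4.40%. These counts are near the shares over all tested genes, so Egr4 is given as a single value and not as a change of the members. The Egr4 call rested on the setting, being lost without any of 10 of the 12 libraries, those of Control included (adjusted p of up to 0.120). It was also lost after correction for GC content (log2 fold change -0.55, adjusted p = 0.218).

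The other members pointed mostly the same way without passing. Egr3 stood at 9.76, 10.7, 13.2 and 11.5 FPKM in Tra_TGF, around its Control level, and its log2 fold change against Trauma was -0.43 ± 0.13 (limma, adjusted p = 0.0532). Arc, at 1.48, 0.985, 2.59 and 2.31 FPKM, differed by -0.71 ± 0.45 (95% interval -1.69 to 0.27; adjusted p = 0.327). Nr4a1, at 5.16, 3.63, 11.1 and 9.52 FPKM, differed by -0.67 ± 0.41 (95% interval -1.56 to 0.22; adjusted p = 0.307).

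Egr1 stood at 5.74, 4.32, 20.0 and 16.3 FPKM in Tra_TGF, again with libraries 3 and 4 high, and its log2 difference from Trauma was -0.38 (95% interval -1.63 to 0.88). Npas4, at 2.48, 2.12, 5.81 and 4.70 FPKM, differed by -0.26 (95% interval -1.13 to 0.61). Both intervals span a fall and a rise. Ier2, at 7.28, 5.47, 10.2 and 7.62 FPKM, differed by -0.31 (95% interval -0.67 to 0.05).

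Nr4a2 and Nr4a3 had the smallest differences between Tra_TGF and Trauma. Nr4a2 stood at 2.23, 1.56, 1.99 and 1.95 FPKM in Tra_TGF, a log2 difference of 0.08 (95% interval -0.36 to 0.52). Nr4a3 stood at 8.14, 7.08, 7.89 and 6.78 FPKM, a log2 difference of -0.14 (95% interval -0.33 to 0.05), so that a fall of more than 0.33 on the log2 scale lay outside the interval. Over the 9 members, 8 were lower in Tra_TGF, with a median log2 fold change of -0.38 against 0.0025 over all tested genes. Fold changes were above 0 for 50.5% of all tested genes. No member was free of overlap between Tra_TGF and Trauma. Over all tested genes 10.2% were higher and 12.0% lower without overlap, so that 0 of 9 members is near these shares.

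Tra_TGF was also set against Control, a comparison that shares its libraries with both others. Nr4a3 (log2 fold change 1.32 ± 0.09, adjusted p = 5.17e-06) and Nr4a2 (1.15 ± 0.20, adjusted p = 0.00361) were higher by limma. Thus 2 of 9 members were called higher and 0 lower, against 16.6% of all tested genes called in either direction, 6.14% called higher and 10.4% called lower. All 9 fold changes were above 0, as were those of 48.5% of all tested genes. Nr4a1, Nr4a2, Nr4a3 and Npas4 did not overlap with Control, which held for 7.94% of all tested genes in this direction. The log2 fold change was 1.24 ± 0.41 for Nr4a1 (adjusted p = 0.0567), 1.03 ± 0.40 for Npas4 (adjusted p = 0.0980), 1.00 ± 0.58 for Egr1 (adjusted p = 0.263), 0.98 ± 0.45 for Arc (adjusted p = 0.159) and 0.44 ± 0.17 for Ier2 (adjusted p = 0.0934). Egr3 and Egr4 lay near their Control means, each with a log2 fold change of 0.02, with 95% intervals of -0.26 to 0.31 and -0.60 to 0.65. The sign of both turned when single libraries were left out. Without libraries 3 and 4 of both injured groups, Nr4a3 (1.34 ± 0.11) and Nr4a2 (1.11 ± 0.23, adjusted p = 0.0391) were still called.

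The genes around these members were followed with 7 lists of 103 tested genes. The lists were chosen with earlier results of these data known, so their counts beside the shares over all tested genes are description and not a test. After injury 25 of the 103 rose and 3 fell, against 3.30% of all tested genes called higher and 2.70% called lower. Of 7 AP-1 genes, which encode the partners of the early response, 5 rose and 0 fell. Fos rose from 1.38 ± 0.261 to 14.4 ± 9.89 FPKM (log2 fold change 3.001 ± 0.518, adjusted p = 0.00569), Fosb by 2.26 ± 0.55 on the log2 scale (adjusted p = 0.0334) and Junb by 1.20 ± 0.25 (adjusted p = 0.0158). Of 25 other early-response genes 5 rose, led by the antiproliferative gene Btg2 (1.29 ± 0.29, adjusted p = 0.0214), the matrix protein gene Ccn1 (1.19 ± 0.17, adjusted p = 0.00217) and the growth arrest gene Gadd45g (1.05 ± 0.23, adjusted p = 0.0191).

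Of 14 late-response and synaptic effector genes, 7 rose and 0 fell in Trauma. Vgf, a neuropeptide precursor, rose from 3.87 ± 1.05 to 23.4 ± 1.20 FPKM (adjusted p = 7.93e-06). Scg2, a secretory granule protein gene, rose by 1.54 ± 0.09 on the log2 scale (adjusted p = 2.55e-06), and Nptx2, which clusters AMPA receptors, by 1.28 ± 0.12 (adjusted p = 9.04e-05). Of 12 ERK feedback genes 6 rose and 0 fell, led by the phosphatase gene Dusp1 (1.24 ± 0.22, adjusted p = 0.00641), Spred3 (1.11 ± 0.10, adjusted p = 6.43e-05) and Dusp5 (1.11 ± 0.18, adjusted p = 0.00344). These p-values are from the same limma fit.

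Of the genes upstream of the members, 0 of 16 for transcription factors and coactivators rose and 1 fell, Mef2a (log2 fold change -0.22 ± 0.05, adjusted p = 0.0173). Of 21 kinase and calcium sensor genes 0 rose and 2 fell, the calcineurin subunit genes Ppp3ca (-0.21 ± 0.03, adjusted p = 0.00284) and Ppp3cb (-0.17 ± 0.05, adjusted p = 0.0468). Among 8 genes for protein partners, the Egr corepressor genes Nab2 (0.81 ± 0.19, adjusted p = 0.0284) and Nab1 (0.24 ± 0.06, adjusted p = 0.0355) rose. The median log2 fold change of the lists was 0.99 for AP-1, 0.30 for other early-response, 0.71 for late-response, 0.45 for ERK feedback, -0.005 for upstream factor, -0.07 for kinase and 0.03 for partner genes, against -0.012 over all tested genes. With libraries 3 and 4 of Trauma and Tra_TGF left out, 12 of the 103 rose and 0 fell, of which 6 were late-response genes. The share over all tested genes is not given for that smaller fit.

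**Figure D4:**
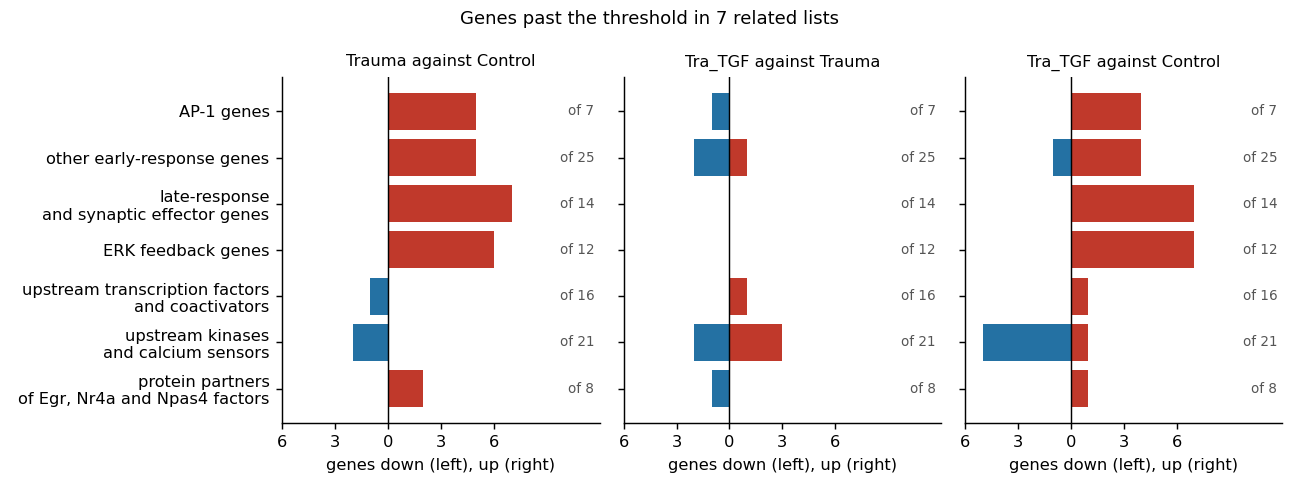
Number of genes (x axis) past an adjusted p of 0.05 in 7 lists (rows), upward to the right in red and downward to the left in blue, with the number tested at the right edge. Bars to the right were longest for late-response and ERK feedback genes in both comparisons with Control, with 6 or 7 genes each.

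In Tra_TGF against Trauma, 5 of the 103 related genes rose and 6 fell, shares near the 4.40% called higher and 7.71% called lower among all tested genes, so that the genes below are given as single values and not as a change of the lists. Ccn1, a target of TGF-β signaling, rose further, from 16.5 ± 4.53 to 27.2 ± 3.45 FPKM (log2 fold change 0.76 ± 0.17, adjusted p = 0.0196). Nab2 fell from 3.67 ± 0.317 to 2.06 ± 0.474 FPKM (-0.82 ± 0.19, adjusted p = 0.0204), next to its Control mean of 2.09 FPKM. Arl4d (-0.69 ± 0.15, adjusted p = 0.0157), Ier5 (-0.65 ± 0.11, adjusted p = 0.00661) and Jun (-0.22 ± 0.05, adjusted p = 0.0238) also fell. Upstream, Mef2a rose by 0.21 ± 0.05 (adjusted p = 0.0183), as did the kinase gene Rps6ka3 (0.36 ± 0.08, adjusted p = 0.0183) and the calcium channel gene Cacna1c (0.18 ± 0.05, adjusted p = 0.0383), while Map2k2 fell (-0.25 ± 0.07, adjusted p = 0.0438). None of the 14 late-response and 12 ERK feedback genes was called in this comparison. All are limma values, and with libraries 3 and 4 of the injured groups left out 0 of the 103 were called. For that smaller fit the share over all tested genes is not given.

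In Tra_TGF against Control 25 of the 103 rose and 6 fell, against 6.14% of all tested genes called higher and 10.4% called lower. Among them were 4 of 7 AP-1, 7 of 14 late-response and 7 of 12 ERK feedback genes upward. Of 21 kinase and calcium sensor genes, 5 fell and 1 rose. Fos (log2 fold change 2.69 ± 0.52, adjusted p = 0.00548), Vgf (2.13 ± 0.17, adjusted p = 1.78e-05), Ccn1 (1.94 ± 0.17, adjusted p = 4.80e-05), Scg2 (1.41 ± 0.09, adjusted p = 2.71e-06), Bdnf, a neurotrophin gene (1.03 ± 0.14, adjusted p = 0.000855), and Spry4 (0.94 ± 0.19, adjusted p = 0.00674) were among those that rose by limma. The kinase genes Mapk7 (-0.31 ± 0.07, adjusted p = 0.0164) and Map2k2 (-0.29 ± 0.07, adjusted p = 0.0203) fell by limma, while the kinase gene Rps6ka3 rose (0.30 ± 0.08, adjusted p = 0.0261).

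The order of libraries seen for the members was shared by part of the related genes. In Trauma, libraries 3 and 4 stood above 1 and 2 for 5 of 7 AP-1 genes and 13 of 25 other early-response genes, 3 of 14 late-response genes, 4 of 12 ERK feedback genes, 5 of 16 upstream factor genes, 2 of 21 kinase and calcium sensor genes and 1 of 8 partner genes, with 18.3% over all tested genes. In Tra_TGF the counts were 3 of 7, 9 of 25, 4 of 14, 5 of 12, 4 of 16, 3 of 21 and 1 of 8 in the same order of lists, with 18.4% over all tested genes. Differences between the lists were not tested.

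Outside the members, the genes whose profile over the 12 libraries lay nearest to the median profile of the members were Dusp1, Btg2, Gadd45g, Junb and Fosl2, with root mean square differences of 0.20, 0.23, 0.26, 0.29 and 0.34 on the log2 scale after each profile was centered on its own mean. For the members taken alone, Nr4a1 and Arc were nearest to each other (0.27), Npas4 was nearest to Nr4a1 (0.28) and Egr1 to Npas4 (0.31). Egr4 was nearest to Junb (0.31), Egr3 to Trib1 (0.14), Ier2 to Arhgap18 (0.19) and Nr4a2 to B230216N24Rik (0.23). Nr4a3 was nearest to Scg2 (0.09), the closest match of any member. Egr1, Npas4, Arc and Nr4a1, the members with the widest spread in Trauma, had another of these genes nearest, whereas Nr4a3 had a late-response gene. The profiles were not scaled to a common spread, so that the width of the spread enters each difference. This ranking is therefore not separate from the spread described above.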

How the data were processed

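The authors sequenced paired-end libraries on an Illumina NovaSeq, aligned reads with Hisat2 and counted them per gene with featureCounts. Per the submitters' processing notes the aligner was HISAT2 2.0.5 and the build mm10. The deposited values are FPKM, which the authors calculated from read counts and gene length, and the deposited table also holds each gene's length in bases (other). Strand use in counting was not given in the sources used here. The methods speak of fewer samples than the 12 libraries deposited.

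FPKM times gene length gave whole reads (within 0.02) for 100% of values. Values were scaled with median-of-ratios factors and logged as log2(FPKM + 0.1), and genes with a mean of at least 0.5 FPKM were compared with limma 3.58.1 (R 4.3.3; trend, 1 fit of 12 libraries, no block), Benjamini-Hochberg adjusted over 15016 genes. Fold changes are on this scale and understate changes of low genes. Errors of fold changes are SE and those of levels SD. The authors' count test was not run, and voom on recovered reads was an alternative. The procedure was tested on simulated reads with the same setting of spread for every gene and no order of libraries. That simulation therefore does not bear on genes as widely spread as most members were in the injured groups. Coordinates are of GRCm38.

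Members and lists were chosen with earlier results of these data known. Named besides the members are up to 3 called genes per list and comparison with the largest change, and the nearest profiles. Ado, Nrbf2, Reep3, Jmjd1c and Zfp365 were named after their values were seen. Alternatives were pseudocounts of 1 and 0.01, no filter or 1 FPKM, values as deposited, quantile normalization, 2-group fits, eBayes without trend or with robust estimation, a replicate block, loess corrections (span 0.3) for length and GC content (known for 14699 genes), voom, and each library left out.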

Additional observations from a re-analysis of the deposited data

How the results depend on the processing

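Nr4a3 and Nr4a2 were called in both comparisons with Control under all 27 alternative settings set out in the methods, Nr4a1 in Trauma against Control under 26, Ier2 under 23 and Arc under 11, and Egr4 in Tra_TGF against Trauma under 9. Outside the 27, with libraries 3 and 4 of Trauma and Tra_TGF left out, Nr4a2 lost its call in Trauma against Control (limma, adjusted p = 0.240). Members called in Trauma against Control numbered 9 with the replicate block, also with a length or GC correction, 8 with voom, 2 with libraries 3 and 4 of Trauma and Tra_TGF left out (added after seeing the data) and 2 to 6 with each library left out in turn, 2 of them without Trauma 4 and 3 without Control 2, Control 3 or Trauma 3. In Tra_TGF against Trauma, 0 were called by limma without a filter, in a fit of 2 groups, without trend, with robust estimation, with a length or GC correction with or without the replicate block, or without libraries 3 and 4, with 2 or 3 at an unadjusted p under 0.05 in these fits. There 2 were called with a filter at 1 FPKM, with the replicate block and with voom, and 0 to 2 with each library left out. In Tra_TGF against Control, 5 were called with the replicate block, also with either correction, 4 with GC correction and 2 to 4 with each library left out. Shares over all tested genes are not given for the alternative settings or for unadjusted p, so these counts, and those of related genes below, have no background. The replicate numbers were not shown to pair libraries: deviations from group means correlated at -0.01 to 0.08 over the 12 pairs of the same number, and a library correlated best with its own number in another group in 7 of 24 cases.

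Related genes called in Trauma against Control (28) fell to 18 without Trauma 4, the lowest of that range, which reached 29, and to 12 without libraries 3 and 4. Those in Tra_TGF against Trauma (11) numbered 17 with quantile normalization, 7 with GC correction, 5 and 3 with length and GC correction plus the replicate block, 21 with voom, 0 by limma without libraries 3 and 4 (18 at an unadjusted p under 0.05), and 2 (without Tra_TGF 2) to 18 (without Control 1) with each library left out. In Tra_TGF against Control (31), 17 were called without libraries 3 and 4. Signs of uncalled log2 fold changes turned when libraries were left out in turn. In Tra_TGF against Control, Egr3 ran from -0.052 (without Tra_TGF 3) to 0.092 and was -0.11 without libraries 3 and 4, and Egr4 ran from -0.16 (without Control 1 or Tra_TGF 3, and -0.0341 without Tra_TGF 1) to 0.19. In Tra_TGF against Trauma, Nr4a2 ran from -0.076 (without Trauma 2) to 0.22 and Npas4 from -0.51 to 0.049 (without Trauma 3). The cause was not tested. Depth limits Arc and Nr4a2 most, with 28 to 63 reads in Control.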
